A study of Mus musculus with 3 samples.

Results

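The p53 group consisted of 10 mouse genes, Trp53 itself and 9 genes it is known to activate (Mdm2, Bax, Bbc3, Pmaip1, Ccng1, Sesn1, Sesn2, Zmat3 and Phlda3), out of 21887 protein-coding genes. They were picked by symbol, and the rule used no measured value, though earlier results of these data were known when they were chosen. Their gene records were taken with 20 kb on each side, and these windows held 33 summits of 45386 in the library labelled old HSC ABC, 62 of 108787 in the library labelled old HSC and 25 of 33248 in the library labelled young HSC. The libraries came from CUT&Tag for H3K9ac, in which an antibody to acetylated lysine 9 of histone H3 directs a transposase to cut and tag the DNA around the mark. A summit is the base at which a called peak of tags is highest.

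Each assay used 50000 sorted haematopoietic stem cells (HSCs) from bone marrow of wild-type mice. Per the labels, the old HSC ABC and old HSC libraries came from mice of 18 to 24 months and the young HSC library from mice of 2 to 4 months. The labels do not spell out ABC, and they name no further allele or agent. There was 1 library per group and nothing says whether animals were pooled, so no difference has a replicate check and none was tested. The sample names inside the peak names go against the labels. The file labelled old HSC ABC carries oHSC-H3K9ac-2, the one labelled old HSC carries oHSC-ABC-H3K9ac-1, and the one labelled young HSC carries oHSC-H3K9ac-1. Libraries are therefore called by their labels, as ABC-labelled, old-labelled and young-labelled, and each direction holds only for the libraries so labelled.

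H3K9ac is enriched around the start sites of transcribed genes, mostly on the nucleosomes just downstream. p53 is a transcription factor that DNA damage and other stresses stabilise. It switches on genes for cell cycle arrest, apoptosis, metabolic restraint and its own removal, and its binding site is built from a pair of half-sites. In HSCs p53 is known for holding cells in quiescence and for removing damaged ones. An acetylation mark at a target gene does not show that p53 is bound there.

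Start-site sequences of 6 members are shown first, because 4 of them (Trp53, Bbc3, Bax and Phlda3) had a summit near the start in some libraries and not in others, and 2 (Mdm2 and Ccng1) had one in all 3. Each runs from 250 bases before to 50 after the RefSeq start site in GRCm38.p6 (the same coordinates as mm10), 5′ to 3′ along the gene. Capitals mark any match to the p53 half-site consensus on either strand. For Bbc3 the first of 3 start sites is shown.
Trp53 (chr11:69580109-69580408, plus strand): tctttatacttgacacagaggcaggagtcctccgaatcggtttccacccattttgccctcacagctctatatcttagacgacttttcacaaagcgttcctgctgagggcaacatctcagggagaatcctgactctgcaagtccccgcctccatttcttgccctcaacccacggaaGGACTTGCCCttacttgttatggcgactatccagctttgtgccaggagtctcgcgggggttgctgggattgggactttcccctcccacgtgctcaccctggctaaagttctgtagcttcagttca
Bbc3 (chr7:16309333-16309632, plus strand): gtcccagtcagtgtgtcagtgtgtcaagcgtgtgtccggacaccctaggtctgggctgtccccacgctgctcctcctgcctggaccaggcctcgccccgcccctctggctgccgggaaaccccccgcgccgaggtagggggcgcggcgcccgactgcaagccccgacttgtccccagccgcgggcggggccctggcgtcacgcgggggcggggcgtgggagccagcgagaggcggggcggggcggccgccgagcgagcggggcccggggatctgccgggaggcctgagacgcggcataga
Bax (chr7:45466849-45467148, minus strand): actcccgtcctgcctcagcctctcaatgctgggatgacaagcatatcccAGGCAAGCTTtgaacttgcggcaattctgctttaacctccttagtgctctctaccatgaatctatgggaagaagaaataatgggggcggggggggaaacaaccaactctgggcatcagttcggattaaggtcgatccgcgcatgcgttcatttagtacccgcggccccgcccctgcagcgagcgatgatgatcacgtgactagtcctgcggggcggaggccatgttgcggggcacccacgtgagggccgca
Phlda3 (chr1:135765835-135766134, plus strand): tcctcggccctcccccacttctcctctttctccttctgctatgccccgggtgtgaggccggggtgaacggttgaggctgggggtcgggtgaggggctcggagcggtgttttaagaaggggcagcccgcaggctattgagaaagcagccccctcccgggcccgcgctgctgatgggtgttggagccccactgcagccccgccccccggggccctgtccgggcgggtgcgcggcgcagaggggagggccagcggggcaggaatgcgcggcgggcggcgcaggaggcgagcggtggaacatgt
Mdm2 (chr10:117710709-117711008, minus strand): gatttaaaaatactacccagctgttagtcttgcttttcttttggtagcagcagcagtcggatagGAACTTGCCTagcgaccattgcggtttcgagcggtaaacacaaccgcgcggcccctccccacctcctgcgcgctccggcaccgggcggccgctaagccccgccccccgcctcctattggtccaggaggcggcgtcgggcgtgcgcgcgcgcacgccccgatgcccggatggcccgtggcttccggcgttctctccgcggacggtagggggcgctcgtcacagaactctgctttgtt
Ccng1 (chr11:40755237-40755536, minus strand): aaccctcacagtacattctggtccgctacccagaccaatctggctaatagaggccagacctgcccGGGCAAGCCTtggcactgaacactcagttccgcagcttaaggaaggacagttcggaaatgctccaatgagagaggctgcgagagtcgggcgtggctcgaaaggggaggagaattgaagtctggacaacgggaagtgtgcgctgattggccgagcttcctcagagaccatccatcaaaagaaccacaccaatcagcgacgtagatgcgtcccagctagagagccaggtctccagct

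A p53 half-site match lay in 1 of these windows each for Trp53, Bax, Mdm2 and Ccng1, and the windows of Bbc3 and Phlda3 held 0. Its first base lay 75 bases before the start site in Trp53, 201 in Bax, 186 in Mdm2 and 185 in Ccng1. The upstream start window of Sesn1 and the Sesn2 window held 0, and the downstream start window of Sesn1 held 1. Of 21255 windows of the same kind at protein-coding genes, 7.38% held such a match. A match is a description of letters and no evidence of a bound site. The windows also differed in CpG number. Trp53 had 10 CpG, Ccng1 14 and Bax 19, while Phlda3 had 26, Bbc3 34 and Mdm2 35, against a median of 13 over all windows. GGGCGG, searched on both strands, occurred 0 times in Trp53 and Ccng1, 2 times in Mdm2, 3 times in Bax and Phlda3 and 5 times in Bbc3, and 46.2% of all windows had at least 1. The old-labelled list had 1 summit inside the printed Trp53 window and 1 inside the printed Bbc3 window. No summit of any library lay inside the other 4.

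A summit counted as a start summit of a gene when it was no more than 1 kb from a RefSeq start site. Zmat3 and Pmaip1 had no start site in the sequence table, so both ends of their records were used, as for 4395 of the 21887 protein-coding genes. Start summits were found at 7 of the 10 members in the ABC-labelled library, at 10 in the old-labelled one and at 7 in the young-labelled library. Over all protein-coding genes the shares were 45.3% (95% Clopper-Pearson interval 44.6 to 45.9), 57.5% (56.9 to 58.2) and 44.2% (43.6 to 44.9) in the ABC-, old- and young-labelled libraries. These intervals treat genes as separate draws, though all were counted and neighbours with close starts can share a summit. They measure no spread between animals. The old-labelled list was 3.27 times as long as the young-labelled one, and the depth of the libraries is unknown. Each count was therefore repeated on equal-length lists, made of the 33248 highest-scoring summits of each library. There 7, 9 and 7 members had a start summit in the ABC-, old- and young-labelled lists, the one lost being Phlda3 in the old-labelled list, and 42.6%, 48.4% and 44.2% of all genes did.

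Marker genes of the sorted cells and of other cell types were counted in the same way. Of 12 HSC and progenitor genes, 7 had a start summit in the ABC-labelled, 12 in the old-labelled one and 9 in the young-labelled one. Of 8 neutrophil and monocyte genes the counts were 3, 7 and 3, and they were the same in equal-length lists, where HSC and progenitor genes stood at 7, 9 and 9. Over all genes the shares were 45.3%, 57.5% and 44.2% as deposited and 42.6%, 48.4% and 44.2% in equal-length lists. In the old-labelled list S100a8, S100a9, Camp and Ngp scored 508, 227, 96.7 and 71.4. Retnlg, Csf1r and Ltf scored 35.4, 18.9 and 6.68 there, and the highest member start summit, at Ccng1, scored 53.5. S100a8 also scored above Ccng1 in the ABC-labelled (23.2 against 20.2) and young-labelled lists (65.0 against 20.1), where Ccng1 was again the highest member. The other neutrophil and monocyte start summits there were Ltf (3.77) and Csf1r (3.21) in the ABC-labelled list. In the young-labelled list they were Camp (14.7) and Csf1r (4.73). Markers of erythroid cells (2, 3 and 1 of 6), megakaryocytes (2, 3 and 1 of 5), B cells (1, 1 and 1 of 5), T and NK cells (2, 2 and 1 of 6) and stroma and endothelium (1, 3 and 0 of 6) were marked in these numbers in the ABC-, old- and young-labelled libraries. In equal-length lists erythroid markers stood at 2, 1 and 1, megakaryocyte markers at 1, 2 and 1 and markers of stroma and endothelium at 1, 0 and 0, with the same counts as before for B cells and for T and NK cells. The part of other cells in the values below was not tested.

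**Figure D1:**
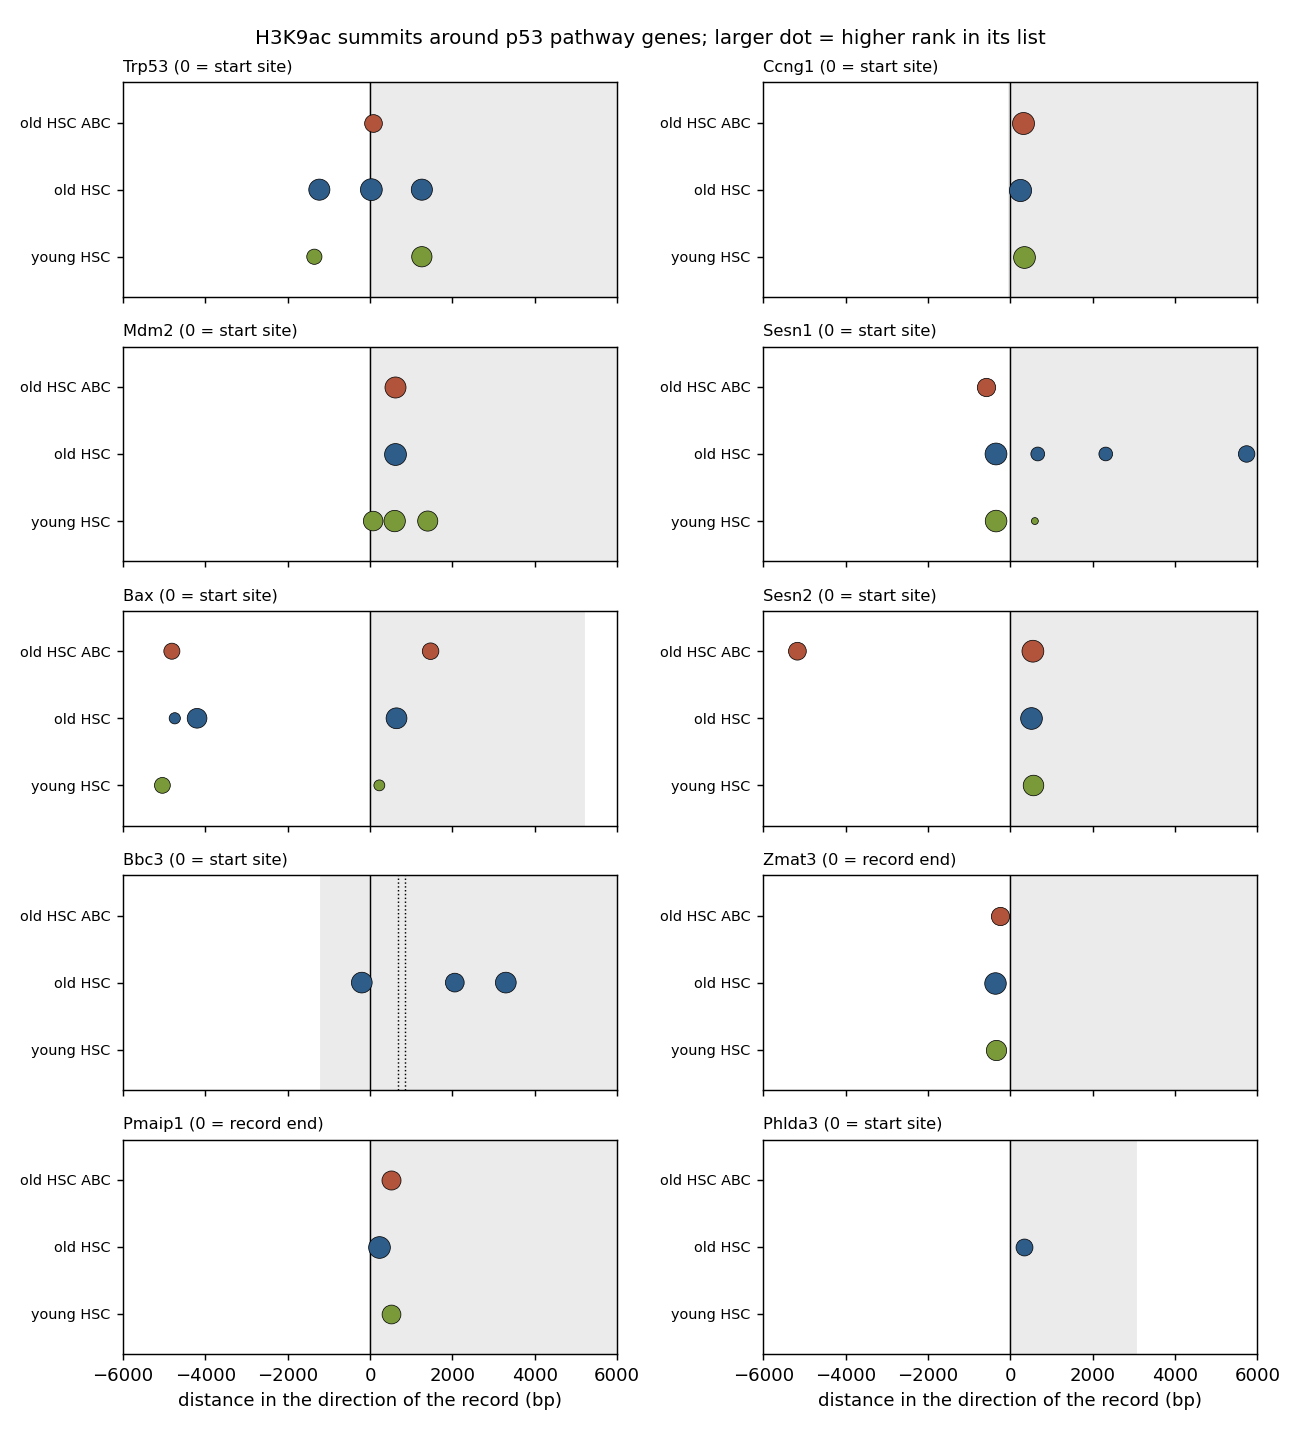
Summits within 6 kb of the start site of each of the 10 genes, in bp along the gene (x axis), for the ABC-, old- and young-labelled libraries (rows). Grey marks the gene record, dotted lines further start sites, and a larger dot a higher rank within its own list; Zmat3 and Pmaip1 are drawn from the record end nearest their summits. At Trp53 the ABC-labelled summit lies 83 bp past the start, the old-labelled summits at -1232, 31 and 1257 bp and the young-labelled ones at -1353 and 1257 bp, while at Mdm2 all 3 libraries share a summit near 597 bp.

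Trp53, the gene of p53 (chromosome 11, 69580348 to 69591873, start site 69580359), was marked around its start in all 3 libraries, but at different places. The ABC-labelled library had 1 summit there, at 69580442, 83 bp downstream of the start (score 4.61, rank 18058 in its list). The old-labelled library had 3, at 69580390 (31 bp downstream, score 29.1, rank 4777), at 69579127 (1232 bp upstream, score 13.6) and at 69581616 (1257 bp downstream, score 13.5). The young-labelled library had 2, at 69579006 (1353 bp upstream, score 3.92) and at the same base 69581616 (1257 bp downstream, score 9.94, rank 6120). The young-labelled library thus lacked a start summit by 257 bp, with summits on both sides of the window, and counted as marked when the window was 2 kb. The score is read as the −log10 q-value of the authors' peak calling within a library and depends on its depth, so it ranks summits within a list only. Wrap53, which encodes a telomerase component, starts on the opposite strand beside Trp53. The upstream old- and young-labelled summits lay in the Wrap53 record and within 1 kb of one of its start sites. The summits counted at the Trp53 start also lay that close to a Wrap53 start, at 192 bp in the ABC-labelled and 140 bp in the old-labelled library. None of these can be assigned to Trp53 alone, while the base 69581616 had no other gene's start within 1 kb. The rest of the Trp53 window held 1 ABC-labelled summit in Shbg and 4 old-labelled ones, of which 1 lay in Wrap53, 1 in Atp1b2 and 2 in no record.

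Mdm2, the ubiquitin ligase that removes p53 (chromosome 10, 117688875 to 117710758, minus strand), had the smallest shift of the 6 members marked at the start in all 3 libraries. It lay at 117710161 in the ABC-labelled, at 117710160 in the old-labelled and at 117710161 in the young-labelled library, 597 or 598 bp inside the gene. The span of 1 bp over the 3 libraries compares with a median of 169 bp over the 8581 protein-coding genes with a start summit in all 3, of which 6.02% had a span as small. Mdm2 was named as the smallest of the 6, so that share does not show its position to be unusual. The other spans were 40 bp at Sesn2, 99 at Ccng1, 117 at Zmat3, 305 at Pmaip1 and 77557 at Sesn1, whose best summit changed start site. Mdm2 is known for a p53-responsive promoter in its first intron, downstream of the outer promoter printed above. Exon positions were not analysed here, so the summit was not placed relative to that promoter. Its scores were 10.3 (rank 5243) in the ABC-labelled, 31.0 (rank 4293) in the old-labelled and 15.7 (rank 2829) in the young-labelled list. The young-labelled library alone had further summits in the record, at 117710683 (75 bp from the start, score 7.98) and 117709358 (1400 bp, score 9.45). Upstream of Mdm2, outside any other gene record, each list had weak summits. The ABC-labelled ones lay at 117719142 (8384 bp before the start, score 1.88) and 117729722 (18964 bp, score 1.83). The old-labelled ones lay at 117719298 (8540 bp, score 2.35), 156 bp from the first ABC-labelled one, and at 117725137 (14379 bp, score 3.76). The young-labelled list had 1, at 117725096 (14338 bp, score 3.70), 41 bp from the second old-labelled one.

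Of the 3 genes of apoptosis, Pmaip1 had a start summit in all libraries, Bax in the old- and young-labelled ones, and Bbc3 in the old-labelled one alone. Bax, the pore-forming protein of the outer mitochondrial membrane (chromosome 7, 45461695 to 45466903, minus strand), had 1 summit in its record in each library. It lay 1469 bp past the start in the ABC-labelled (45465429, score 4.00), 642 bp in the old-labelled (45466256, score 11.1) and 225 bp in the young-labelled list (45466673, score 2.64). Bax thus had a start summit in the old- and young-labelled lists, and missed the window in the ABC-labelled one. The ABC-labelled summit lay 827 bp from the old-labelled and 1244 bp from the young-labelled one, so it was not shared within 500 bp. The strongest summits of its window lay elsewhere, at the start of the ferritin light chain gene Ftl1, with ranks of 6585, 2091 and 1433 in the ABC-, old- and young-labelled lists. A weaker group upstream of Bax, outside any gene record, had its summits at 45471711 in the ABC-labelled, 45471099 and 45471640 in the old-labelled list and 45471941 in the young-labelled one.

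Bbc3, which encodes the BH3-only protein PUMA (chromosome 7, 16308398 to 16318334, plus strand), had summits in its record in the old-labelled library alone. There were 0 in the ABC-labelled library, 3 in the old-labelled library and 0 in the young-labelled library. The old-labelled summits lay at 16309382 (201 bp before the first start site, score 10.4, rank 15779), 16311640 (score 5.72) and 16312879 (score 10.7, rank 15438). The nearest summit to a Bbc3 start lay 15980 bp away in the ABC-labelled library, in the neighbouring gene Sae1, and 23365 bp away in the young-labelled library, outside the window. The Sae1 summit was at 16326411 in the ABC-labelled and at 16326412 in the old-labelled list. A young-labelled window with 0 summits was not rare, since 28.0% of all protein-coding genes had one.

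Pmaip1, the BH3-only gene of NOXA, which binds MCL1 (66458604 to 66465558 on chromosome 18), was marked near one end of its record in all 3 libraries. The summit lay at 66459120 in the ABC-labelled (516 bp inside that end, score 5.75, rank 13185), at 66458815 in the old-labelled (211 bp, score 25.1, rank 5923) and at 66459120 in the young-labelled list (516 bp, score 6.53, rank 10361). The ABC- and young-labelled summits were thus at the same base. A further summit stood beyond the other end, outside any gene record, at 66470938 in the ABC-labelled (score 3.25), 66471251 in the old-labelled (score 11.2) and 66471176 in the young-labelled list (score 3.68).

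Among the genes of cell cycle control and feedback, Ccng1 ranked highest. Ccng1, cyclin G1, which directs a phosphatase to Mdm2 (chromosome 11, 40748552 to 40755309, minus strand), had its start summit at 40754970 in the ABC-labelled (316 bp, rank 1216), at 40755043 in the old-labelled (243 bp, rank 1166) and at 40754944 in the young-labelled library (342 bp, rank 1597). Among genes with a start summit in the same list, Ccng1 was 10.4%, 8.60% and 14.7% from the top in the ABC-, old- and young-labelled lists. The only stronger summit in its window belonged to the paired starts of Hmmr and Nudcd2, with ranks of 853, 610 and 231 in the ABC-, old- and young-labelled lists. The old-labelled list added 2 weak summits upstream (scores 2.46 and 4.17).

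Zmat3, an RNA-binding zinc finger protein (chromosome 3, 32334792 to 32365665), had a summit just beyond one end of its record in every library. It lay at 32365918 in the ABC-labelled (253 bp beyond, score 5.10), at 32366035 in the old-labelled (370 bp, score 20.5) and at 32366004 in the young-labelled library (339 bp, score 9.86). These positions lie in the record of the non-coding gene 4930429B21Rik, within 1 kb of its start, so they cannot be assigned to Zmat3 alone. Each list had a summit deep inside the Zmat3 record, at 32356160 in the ABC-labelled (score 7.45), 32356891 in the old-labelled (score 6.46) and 32356900 in the young-labelled one (score 2.76). The ABC-labelled one lay 731 bp from the old-labelled and 740 bp from the young-labelled one, so it was not shared within 500 bp. In the ABC-labelled list its inner summit outranked the one at the end (8904 against 15922), whereas the end summit ranked higher in the old-labelled (7648 against 28943) and young-labelled lists (6193 against 26004).

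Phlda3, a repressor of the kinase Akt (chromosome 1, 135766085 to 135769134, plus strand), had the lowest-ranked start summit of the 10 members in the old-labelled list. Its record held 0 summits in the ABC-labelled, 1 in the old-labelled one and 0 in the young-labelled one. The old-labelled summit lay at 135766419, 334 bp past the start, with a score of 4.43 and rank 50020, and did not reach the equal-length list, whose lowest score was 5.86. The nearest summits to the start lay 12933 bp away in the ABC-labelled and 23644 bp away in the young-labelled library. The flanks held a summit downstream at 135779018 in the ABC-labelled and 135779067 in the old-labelled list, and one upstream at 135753121 (rank 5962) in the ABC-labelled and 135753077 (rank 9934) in the old-labelled list. Both pairs lay within 500 bp of each other and outside any gene record.

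The sestrins, stress proteins that restrain mTORC1, were marked in every library. Sesn2 (chromosome 4, 132492804 to 132510456, minus strand) had its start summit at 132509908 in the ABC-labelled (548 bp inside, rank 1878), at 132509942 in the old-labelled (514 bp, rank 5900) and at 132509902 in the young-labelled library (554 bp, rank 5383). It was the member that stood higher in the ABC-labelled list, at 16.4% from the top of the genes with a start summit, than in the old-labelled (41.0%) and young-labelled lists (46.6%). A summit near the other end of the record also recurred, at 132494991 in the ABC-labelled (score 3.60), 132494811 in the old-labelled (score 10.9) and 132494987 in the young-labelled list (score 2.87).

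Sesn1, the longest record of the group (chromosome 10, 41810574 to 41908436, plus strand), has RefSeq start sites at 41810574 and 41887439, and both were marked in all 3 libraries. At the upstream start the summits lay at 41809984 in the ABC-labelled (score 5.14, rank 15737), 41810226 in the old-labelled (score 29.5, rank 4660) and 41810228 in the young-labelled list (score 18.0, rank 2077). They lay between Sesn1 and the opposed start of Cep57l1 and within 1 kb of it, so they cannot be assigned to Sesn1 alone. Within 2 kb of the downstream start the summits were at 41887247, 41887783 and 41888602 in the ABC-labelled (scores 4.77, 6.45 and 7.94), at 41887753 and 41888544 in the old-labelled (10.9 and 22.8) and at 41887782 and 41888997 in the young-labelled list (4.34 and 9.10). The ABC-labelled list thus ranked the downstream start above the upstream one. In the old- and young-labelled lists the upstream start had the best-ranked summit. As deposited, the old-labelled record held 10 summits, against 3 in the ABC-labelled and 3 in the young-labelled one. Record and flanks together held 6, 14 and 4 summits in the ABC-, old- and young-labelled lists. In equal-length lists they held 6, 7 and 4.

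**Figure D2:**
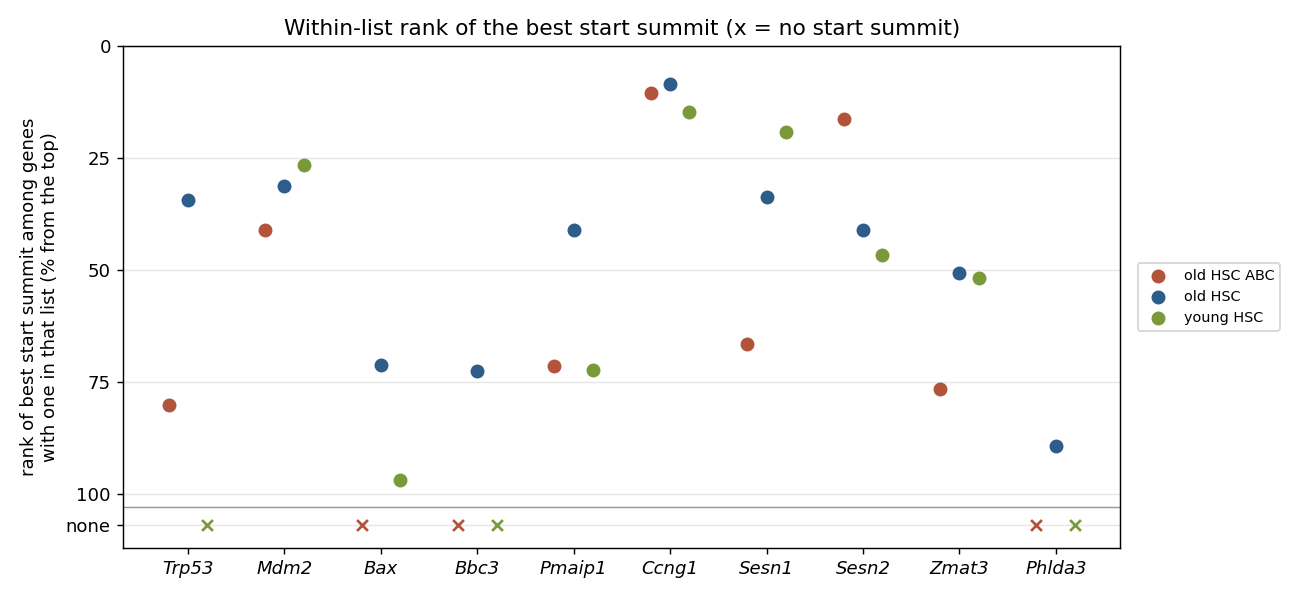
Rank of the best start summit of each gene among all protein-coding genes with a start summit in the same list, in % from the top (y axis, top is strongest), for the ABC-, old- and young-labelled libraries; an x marks no start summit. Ccng1 lies at 10.4%, 8.60% and 14.7%, and Bax, Bbc3 and Phlda3 lie at 71.3%, 72.5% and 89.4% in the old-labelled list.

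The start summits tended to lie downstream of the start, as they did over all genes. Among the members with a known start site, the strongest start summit was downstream in 5 of 5 in the ABC-labelled, 6 of 8 in the old-labelled and 4 of 5 in the young-labelled library. Over all genes with a start site and a start summit, 69.3%, 68.5% and 71.0% did. The median signed position, with upstream summits counted as negative, was 344, 288 and 342 bp downstream for the members and 170, 157 and 202 bp over all genes.

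Set against the old HSC library, the old HSC ABC library asks what goes with the ABC label at the same age. The names inside the files put ABC on the old-labelled library, so the direction rests on the labels. No member had a start summit in the ABC-labelled library and none in the old-labelled one, a call made for 1.67% of all genes. The reverse held for 3 of 10 members, Bax, Bbc3 and Phlda3, against 13.9% of all genes. In equal-length lists the counts were 0 (2.42% of all genes) and 2, Bax and Bbc3 (8.15%). Of the genes with an old-labelled start summit to lose, 24.2% had none in the ABC-labelled library as deposited and 16.8% in equal-length lists, against 3 of 10 and 2 of 9 members. With 10 genes, 1 gene moves a share by 10 percentage points, so the counts are too coarse to show the members alike or unlike all genes.

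By the labels, the old HSC library against the young HSC library is a contrast of age. The names inside both files begin with oHSC, so the age difference rests on the labels alone. Trp53, Bbc3 and Phlda3 had a start summit in the old-labelled library and lacked one in the young-labelled library (3 of 10, against 14.5% of all genes), and 0 members showed the reverse (1.14%). In equal-length lists these were 2, Trp53 and Bbc3 (6.62%), and 0 (2.47%). Of the genes with an old-labelled start summit, 25.1% lacked one in the young-labelled library as deposited and 13.7% in equal-length lists, against 3 of 10 and 2 of 9 members. The member counts are again too coarse to show them alike or unlike all genes. The old-labelled library serves in both contrasts, so Bbc3 and Phlda3 appear in both by the same summits. Only Bbc3 differed as deposited, in equal-length lists and when absence meant no summit within 5 kb, in both contrasts.

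Between old HSC ABC and young HSC, the libraries closest in length, the members differed by 1 gene each way. Trp53 had a start summit in the ABC-labelled and not the young-labelled library (5.44% of all genes as deposited, 4.04% in equal-length lists). Bax had one in the young-labelled and not the ABC-labelled library (4.40% and 5.62%). Both genes had a summit within 2 kb of the start in all 3 libraries, so with that window the ABC-labelled and young-labelled libraries differed at 0 members.

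**Figure D3:**
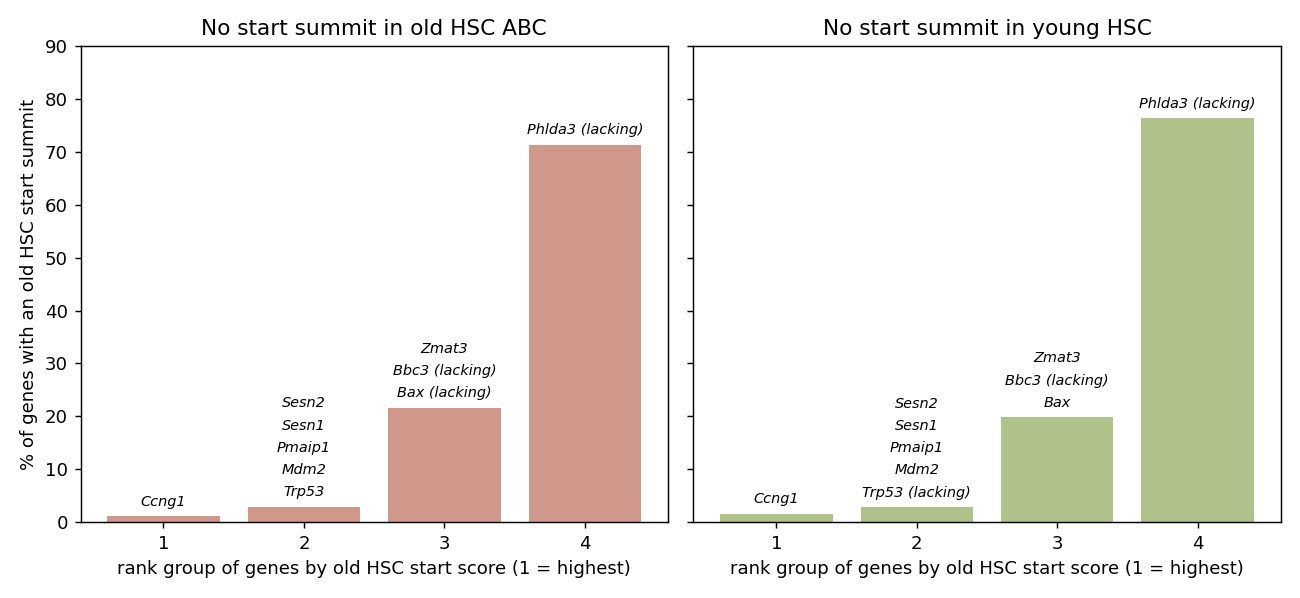
Share of the genes with an old-labelled start summit that had none in the ABC-labelled (left) or young-labelled library (right), in %, by rank group of the old-labelled start score (group 1 is highest, each of about 3148 genes); member names stand above the bar of their group. The share climbs to 71.3% and 76.3% in group 4, which holds Phlda3, and Trp53 lies in group 2, where 2.83% of genes had no young-labelled start summit.

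Whether a gene lacked a start summit in a shorter list went with its rank in the old-labelled one. The 12594 genes with an old-labelled start summit were split by its score into 4 rank groups. In group 1, the highest, which held Ccng1, 1.11% of genes had none in the ABC-labelled library and 1.62% none in the young-labelled one. In group 2, with Trp53, Mdm2, Pmaip1, Sesn1 and Sesn2, the shares were 2.89% and 2.83%. In group 3, with Bax, Bbc3 and Zmat3, they were 21.6% and 19.8%, and in group 4, with Phlda3, 71.3% and 76.3%. In equal-length lists Bax and Bbc3 were in group 4, where 51.1% of genes had no ABC-labelled and 42.4% no young-labelled start summit. Trp53 was thus the only member of groups 1 and 2 with a missing start summit, and its young-labelled summits stood at both sides of the window.

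**Figure D4:**
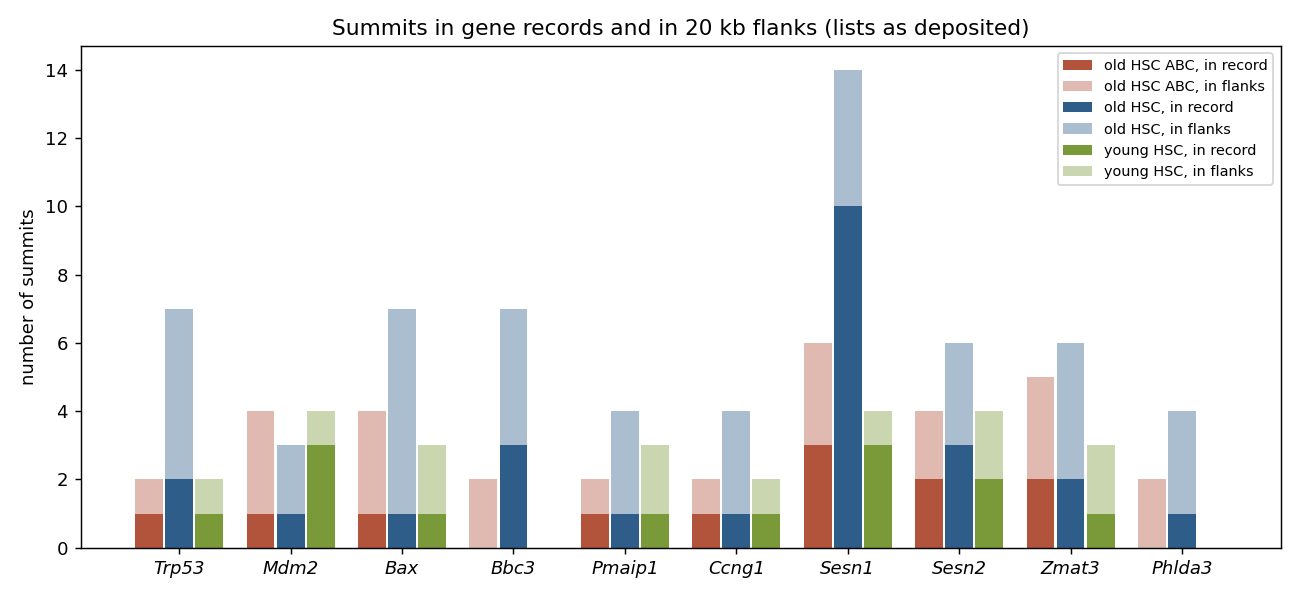
Number of summits in the record (solid) and in the flanks of 20 kb on each side (pale) of each gene, for the ABC-, old- and young-labelled libraries, lists as deposited. Sesn1 has 6, 14 and 4 summits (6, 7 and 4 in equal-length lists, not drawn), and Bbc3 and Phlda3 have 0 in the young-labelled library.

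In the windows of record and flanks, 12 ABC-labelled summits lay in records and 21 in flanks. The old-labelled library had 25 and 37, and the young-labelled library 13 and 12. The median per member was 3, 6 and 3 in the ABC-, old- and young-labelled lists, against 3, 6 and 2 over all protein-coding genes. In equal-length lists the windows held 29, 30 and 25 summits, in the ABC-, old- and young-labelled libraries. Of the flank summits, 11 of 21, 17 of 37 and 5 of 12 lay in another gene's record or within 1 kb of another start. Most young-labelled member summits had an old-labelled counterpart within 500 bp (22 of 25, 88.0%, interval 68.8 to 97.5), while 13 of 25 (52.0%, 31.3 to 72.2) had an ABC-labelled one. Both intervals take summits as separate draws, though several came from 1 gene and all from 1 library, so they measure no spread between animals. Over the whole young-labelled list the shares were 77.4% and 59.0%. Of the ABC-labelled member summits 66.7% lay that close to an old-labelled summit and 39.4% to a young-labelled one (72.4% and 43.5% over the list). Of the old-labelled ones 35.5% lay as close to an ABC-labelled and 35.5% to a young-labelled summit (30.3% and 23.8%).

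Other genes of the pathway were counted as 3 lists. Of 22 further p53 targets, 16 had a start summit in the ABC-labelled, 22 in the old-labelled one and 18 in the young-labelled one (16, 19 and 18 in equal-length lists), where 45.3%, 57.5% and 44.2% of all genes did (42.6%, 48.4% and 44.2%). As deposited, 6 were marked in the old- and not the ABC-labelled library (13.9% of all genes) and 4 in the old- and not the young-labelled one (14.5%). The reverse directions had 0 each (1.67% and 1.14%). In equal-length lists 3 (8.15%) and 1 (6.62%) were marked in the old-labelled library alone of each pair. Cdkn1a, the inhibitor p21 that arrests the cycle, had an old-labelled start summit (score 18.6) 754 bp from one of its starts. Its nearest ABC- and young-labelled summits lay 1229 and 1213 bp away. Plk2, a polo-like kinase, and Tigar, which lowers glycolytic flux, had old-labelled (12.2 and 8.76) and young-labelled start summits (6.97 and 4.45). Their nearest ABC-labelled summits lay 38188 and 17563 bp away.

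Of 15 regulators of p53, 11, 11 and 10 had a start summit in the ABC-, old- and young-labelled libraries, both as deposited (45.3%, 57.5% and 44.2% of all genes) and in equal-length lists (42.6%, 48.4% and 44.2%). Mdm4, the partner of Mdm2 that blocks p53, was marked in all 3, at 101, 102 and 101 bp from a start, with scores of 32.9, 64.0 and 28.1. Hipk2, a kinase of p53, was marked in the ABC-labelled library alone (8.58), with old- and young-labelled summits 1062 bp from a start. Atr, the replication stress kinase, lacked an ABC-labelled start summit (nearest 4526 bp), and Usp7, which deubiquitinates p53 and Mdm2, lacked a young-labelled one (1317 bp). Of 12 genes of the BCL2 family, 5, 9 and 6 were marked (5, 8 and 6 in equal-length lists), against the same 45.3%, 57.5% and 44.2% of all genes (42.6%, 48.4% and 44.2%). With 12 genes, no more is read from these counts. Mcl1, the survival protein that NOXA binds, was marked in all 3. Bcl2l11, the BH3-only gene of BIM, had an old-labelled start summit (11.7) and its nearest ABC- and young-labelled summits 31243 and 41646 bp away. Bik, another BH3-only gene, was also marked in the old-labelled library alone (7.53), while the survival gene Bcl2l1 had old- and young-labelled start summits (22.9 and 6.82) and no ABC-labelled summit within 9297 bp of a start.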

How the data were processed

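H3K9ac CUT&Tag summits of sorted mouse HSCs were analysed in 3 libraries, 1 for each group. The build was mm10, and the tools BWA, Picard, MACS2 and edgeR are listed, per the submitters' processing notes, with no role, version or setting. The deposited score of each summit is read as a −log10 q-value by the authors' peak calling in that library, because each list starts at 1.30, the −log10 of 0.05. No floor or interval that needs read depth is given.

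Gene records, start sites and promoter sequences came from RefSeq tables of GRCm38.p6 (8 of 10 members had a start site). Start summits, window counts, distances, ranks and motif matches were computed with Python 3.11.15, numpy 2.4.6, pandas 2.3.3 and scipy 1.17.1, and the counting was tested on simulated summits. Positions are 1-based. Ranks and shares of lists of different length are descriptions and show no change. The genes and lists were chosen with earlier results of these data known. Named outside the lists' rule were genes next to members and the neutrophil and monocyte markers whose scores are given. Bmf, Bid, Bad, Hrk, Bcl2a1b, Eda2r, Perp and Ephx1, under the other observations, were also named outside it. Within the lists, Cdkn1a, Mdm4 and Mcl1 were always named, and otherwise genes whose call differed with the deposited and with the equal-length lists. Alternatives were score minimums of 5 and 10, equal-length lists, merging within 500 bp, windows of 500 bp and 2 kb, either record end, absence within 5 kb, flanks of 5 and 50 kb, flank summits away from other genes, sharing within 250 bp or 1 kb, and, added after the data were seen, equal-length lists with a window of 2 kb.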

Additional observations from a re-analysis of the deposited data

How the results depend on the processing

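Of 111 values recomputed under an alternative, 80 stayed within 1.5 times the value as reported, or within its binomial interval for shares, and 31 moved; the cause was not tested. Using either record end, leaving out flank summits at other genes and sharing within 1 kb moved none by this limit. Leaving out those flank summits still lowered the window counts from 33, 62 and 25 to 22, 45 and 20 (ABC-, old- and young-labelled). Merging summits closer than 500 bp changed no value, but no list had member summits that close, so it could not show stability. Equal-length lists moved the old-labelled window count to 30. A score of at least 5 gave window counts of 12 (ABC-labelled), 35 (old-labelled) and 12 (young-labelled), and 0 members differing between the ABC- and young-labelled libraries in either direction. A score of at least 10 gave window counts of 4, 21 and 6 and start summits at 3 ABC-labelled and 4 young-labelled members. It left 6 members in the old- and not the ABC-labelled library, 5 in the old- and not the young-labelled one, and 0 in the ABC- and not the young-labelled one. A window of 500 bp left 4 ABC-labelled members with a start summit, and 2 members were marked in the young- and not the old-labelled, and 2 in the young- and not the ABC-labelled library. A window of 2 kb, and absence within 5 kb, each gave 0 members differing between the ABC- and young-labelled libraries in either direction. In equal-length lists a window of 2 kb, chosen after seeing the data, gave 1 member in the old- and not the ABC-labelled library, 1 in the old- and not the young-labelled one and 0 for either direction between the ABC- and young-labelled libraries. Flanks of 5 kb gave window counts of 19 (ABC-labelled) and 36 (old-labelled), and flanks of 50 kb gave 70, 128 and 62. Within 250 bp, 68.0% of young-labelled summits had an old-labelled neighbour. No paired analysis was possible because each group had 1 library. Depth is unknown, so an absent summit means not called, not unmarked.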

Other observations

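BH3-only genes, whose proteins start mitochondrial apoptosis, stood apart from each other in a grouping made after their values were seen. Of 8 such genes among the members and the BCL2 family list, 4 (Bbc3, Bcl2l11, Bik and Bmf) had a start summit in the old-labelled library and in neither other one. As deposited, the same pattern was found in 10.1% of all protein-coding genes, but a grouping made after its values were seen cannot be compared with that share. Pmaip1, Bid and Bad were marked in all 3 libraries, and Hrk in none. The Bmf summit (2.99) did not reach the old-labelled equal-length list, and the nearest ABC- and young-labelled summits to a Bmf start lay 4867 and 4167 bp away. No test was made, and the difference in list length was not separated from this pattern.

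Of the further p53 targets, Eda2r, Perp and Ephx1 had old-labelled start summits as deposited (5.05, 3.17 and 4.62) that did not reach the equal-length list, named here after their values were seen. The survival gene Bcl2a1b had no start summit in any library, and its nearest summits lay 11556, 11557 and 11557 bp away in the ABC-, old- and young-labelled lists.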
